A study of Mus musculus with 16 samples.

Results

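The genes described here are the Rab GTPases of membrane traffic in RAW 264.7 cells, a mouse macrophage-like line. They were taken as all rows whose symbol is Rab followed by a number and optional further letters and digits. The pattern found 70 of 52636 gene rows. Of these, 59 encode Rab GTPases. A further 9 encode regulators or effectors whose symbols share the pattern (Rab3gap1, Rab3gap2, Rab3ip, Rab3il1 and Rab11fip1 to Rab11fip5), and 2 are antisense transcripts (Rab10os and Rab26os). The regulators and the antisense transcripts are counted apart from the GTPases.

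Rab proteins are small GTPases of the Ras superfamily that mark intracellular membranes. Exchange factors (GEFs) load them with GTP, GTPase-activating proteins (GAPs) return them to the GDP form, and in the GTP form they recruit effectors that move, tether and fuse vesicles. Each compartment has its own set, with Rab5 on early endosomes, Rab11 on recycling endosomes, Rab7 on late endosomes, Rab1 and Rab2 between endoplasmic reticulum (ER) and Golgi, and Rab8, Rab10 and Rab27 on secretory routes, and in macrophages they carry phagosomes through maturation.

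Messenger RNA was measured by sequencing from the 3′ ends of transcripts (QuantSeq 3′ FWD) in 16 libraries. Cells received a control siRNA or 1 siRNA product against Cebpb at 25 nM for 24 h, and then no agent or isoproterenol. Cebpb encodes C/EBPβ, a transcription factor, and isoproterenol activates β-adrenergic receptors and so raises cAMP. The groups were control siRNA, Cebpb siRNA, control siRNA with isoproterenol and Cebpb siRNA with isoproterenol. Each held 4 libraries, 2 replicates from each of 2 experiments, and the design text calls them biological replicates. All groups share the cell line and a transfection, and neither dose nor duration is given for isoproterenol in the sources used. Values are reads per 1000000 sequenced reads (RPM), and in the lists below the 4 values of a group come as replicates 1 and 2 of experiment 1 and replicates 1 and 2 of experiment 2.

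The libraries held 9422448 to 25172136 reads. Values of 1 RPM or less, which is 9 to 25 reads depending on the library, were listed as 0. Cebpb itself lay between 61.3 and 87.3 RPM with control siRNA and between 11.8 and 33.1 RPM with Cebpb siRNA. With isoproterenol it lay between 78.0 and 100.6 RPM and between 23.9 and 28.5 RPM. All 10 macrophage markers were above the floor in all 16 libraries. The 17 markers of B, T and NK cells, epithelium and fibroblasts were all listed at 0. Of 5 neutrophil markers only S100a8 was above the floor, with 2.28 to 3.48 RPM in control siRNA libraries, 0 to 1.05 with Cebpb siRNA, 4.44 to 5.84 in the control siRNA libraries that got the agonist and 0 where Cebpb siRNA met the agonist, and of 4 dendritic markers only Zbtb46. The summed macrophage markers ranged from 1644 to 2088, 1953 to 2185, 2237 to 2655 and 2071 to 2599 RPM in the same order of groups. The siRNA groups also differed in the share of unmapped reads (5.07% to 5.94% with control siRNA, 5.9% to 7.61% with Cebpb siRNA) and in the mitochondrial rRNA mt-Rnr2, which was higher with Cebpb siRNA by 0.59 ± 0.08 on the log2 scale (limma adjusted p = 1.3e-06) without isoproterenol. The part of these differences in the results on Rab genes was not tested.

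Several sequences are shown because the results return to them. The first set lies in 3′ UTRs, where an earlier look at these same fold changes had found that the 7-base word AACTTGT marks transcripts that were lower with the Cebpb siRNA. That word was therefore chosen on these data. Each line is the mRNA strand, read from GENCODE vM21 transcripts on GRCm38, and the capitals mark the word, or its 8-base form AACTTGTA where present. The Rab5a site is chr17:53507564-53507593 on the plus strand, the Rab12 site chr17:66495556-66495585 on the minus strand and the Rab5c site chr11:100715638-100715666 on the minus strand. Rab22a (chr2:173704505-173704533 on the plus strand) and Rab28 (chr5:41625400-41625428 on the minus strand) are shown as genes that hold the word and rose.
Rab5a: tctgctagcagAACTTGTAcattttacagt
Rab12: agctatacactAACTTGTAaatatgcaaat
Rab5c: acccacatcttAACTTGTtgggagcgtct
Rab22a: gtcctcatttaAACTTGTtctgaagggag
Rab28: ttttctatctgAACTTGTgtatgtgaaag

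The second set are promoters, from 250 bases before to 50 bases after the gene start, from RefSeq on GRCm38.p6. Rab20 (chr8:11478591-11478890 on the minus strand) and Rab32 (chr10:10558158-10558457 on the minus strand) are shown because they were the members called with isoproterenol in control cells, and the Rab32 window holds none of the motifs. Rab5a (chr17:53478984-53479283 on the plus strand) is shown because, of the 36 tested Rab GTPases with a promoter in the table, it alone held the full cAMP response element. Capitals mark the motifs searched: the full element TGACGTCA, its 5-base part TGACG, the C/EBP word TTGCNNAA and the E-box CACGTG, on both strands. TGACG occurs within TGACGTCA on either strand, and motifs may overlap.
Rab20: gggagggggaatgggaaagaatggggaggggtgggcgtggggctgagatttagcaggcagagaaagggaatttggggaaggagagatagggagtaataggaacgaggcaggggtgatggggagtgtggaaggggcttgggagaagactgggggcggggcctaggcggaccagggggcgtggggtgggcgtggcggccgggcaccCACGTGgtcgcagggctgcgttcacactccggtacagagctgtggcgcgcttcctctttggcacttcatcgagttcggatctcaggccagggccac
Rab32: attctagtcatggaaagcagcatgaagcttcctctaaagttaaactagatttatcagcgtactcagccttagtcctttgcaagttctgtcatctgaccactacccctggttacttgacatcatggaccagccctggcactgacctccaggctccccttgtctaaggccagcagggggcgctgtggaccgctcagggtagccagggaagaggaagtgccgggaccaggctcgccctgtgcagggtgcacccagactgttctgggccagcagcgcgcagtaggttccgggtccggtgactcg
Rab5a: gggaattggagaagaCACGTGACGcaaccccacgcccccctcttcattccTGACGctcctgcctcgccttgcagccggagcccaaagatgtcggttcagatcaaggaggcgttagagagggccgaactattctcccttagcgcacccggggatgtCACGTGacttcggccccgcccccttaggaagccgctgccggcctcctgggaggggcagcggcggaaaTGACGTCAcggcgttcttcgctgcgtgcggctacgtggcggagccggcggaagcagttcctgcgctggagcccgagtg

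Of the 59 Rab GTPases, 41 were tested and 39 of them were above the floor in every library. The other 18 were listed at 0 in all 16 libraries: Rab3b, Rab3c, Rab26, Rab27b, Rab37 and Rab44 of the secretory set, Rab4b, Rab15, Rab17 and Rab25 of recycling, Rab9b, Rab38 and Rab42 of the late endosome, Rab6b, Rab33a, Rab36 and Rab39b of the Golgi, and Rab40b. Rab11fip4 was also at 0 throughout. All 7 early endosomal GTPases were tested, against 6 of 10 for recycling, 6 of 9 for late endosome and lysosome, 12 of 16 for ER and Golgi, 7 of 13 for secretion and 3 of 4 in a small group of ciliary and other Rabs. The summed level of all Rab GTPases was 2053 ± 94.9 RPM with control siRNA and 2022 ± 55.6 with Cebpb siRNA (SD, n = 4). With isoproterenol it was 2193 ± 82.7 and 2179 ± 51.0 RPM. The ranges of the siRNA groups overlapped in both cases.

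Cebpb siRNA was followed by changes in both directions within every compartment. Without isoproterenol 15 of 41 tested Rab GTPases were higher (36.6%) and 13 lower (31.7%), at a limma adjusted p under 0.05. Over all 11060 tested genes 30.9% were higher and 30.4% lower, so these shares were close to the background. With isoproterenol 17 were higher (41.5%) and 13 lower (31.7%), against 31.6% and 30.3% of all genes. The median log2 fold change of the 41 was 0.09 without and 0.13 with isoproterenol, against 0.01 and 0.02 for all genes, and the median size of change was 0.30 and 0.34 against 0.35 and 0.36. In this bulk measurement, fewer cells of a kind and less RNA per cell cannot be told apart. The 2 siRNA comparisons use different libraries, though they share an estimate of the spread. Of the 41 GTPases, 14 were higher in both, 11 lower in both and 0 moved in opposite directions. All 28 and all 30 calls had the same sign in both experiments, though each call was made on both experiments together. Over all 11060 tested genes 6783 and 6854 were called in the 2 comparisons. Their agreement was not counted, so that of the Rab GTPases has no background and is not read as particular to them. In values as deposited, with no scaling between libraries, 10 GTPases were higher and 14 lower without isoproterenol, and 16 and 14 with it. The median log2 fold change of all genes also moved with no scaling, to −0.07 without and −0.04 with isoproterenol. These unscaled counts are thus not read as a result about Rab genes.

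**Figure D1:**
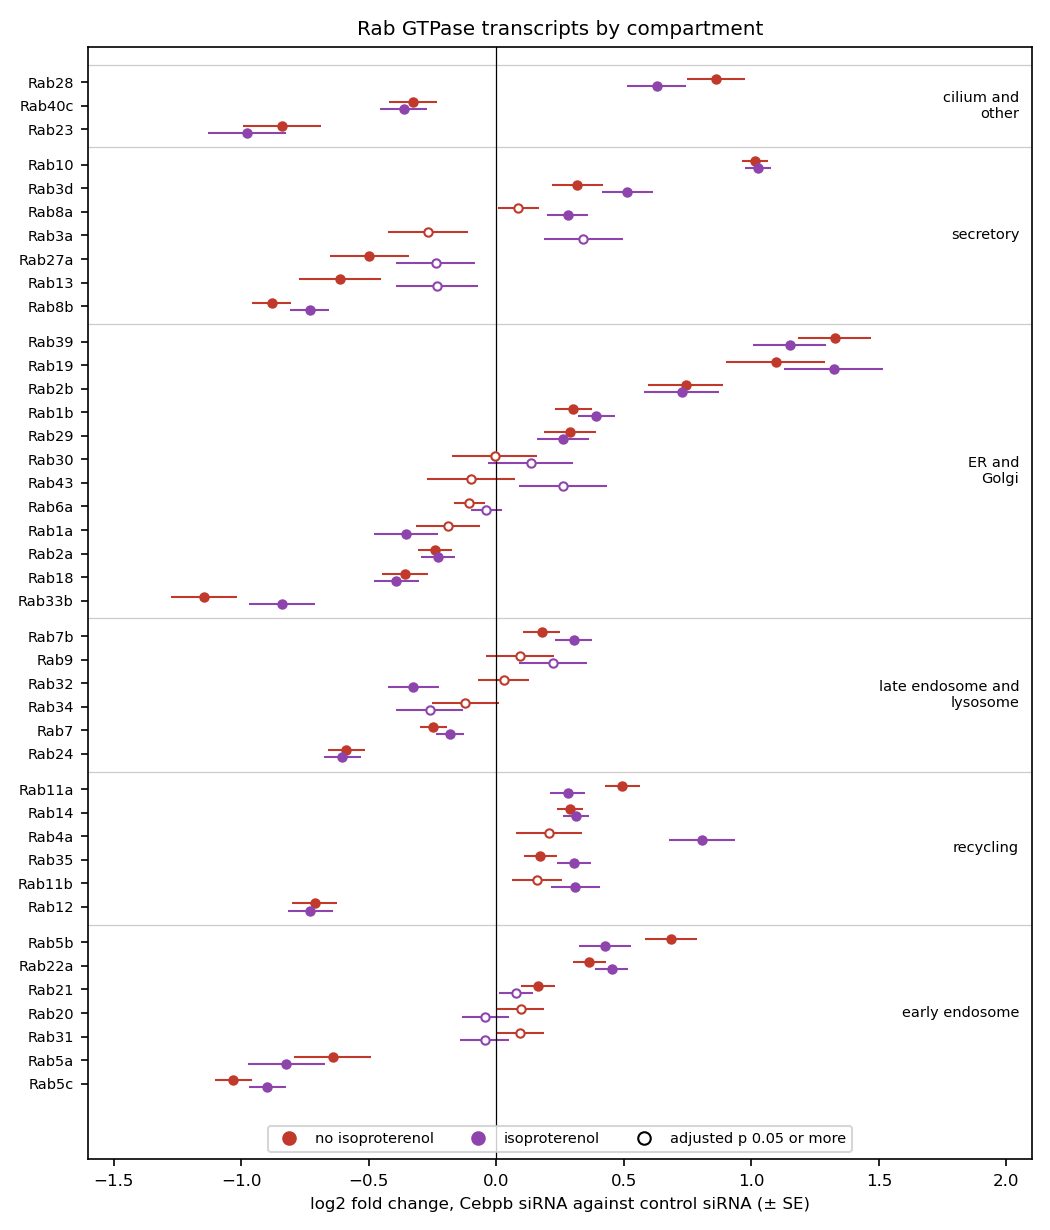
Log2 fold change between Cebpb siRNA and control siRNA libraries for the 41 tested Rab GTPases, grouped by compartment, with bars for the standard error. Filled points have a limma adjusted p under 0.05. Both directions occur in every compartment, from −1.15 (Rab33b) to 1.33 (Rab39) without isoproterenol.

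On early endosomes the 3 Rab5 genes moved apart. Rab5 proteins drive endosome fusion by recruiting a phosphatidylinositol 3-kinase and tethering factors such as EEA1. Rab5c (ENSMUSG00000019173.11, chr11:100715009-100738215 on the minus strand) was at 152, 139, 131 and 141 RPM with control siRNA and at 62.8, 75.0, 69.7 and 53.7 RPM with Cebpb siRNA. Every Cebpb siRNA library was below every control library, and the log2 fold change was −1.03 ± 0.07 (limma adjusted p = 4.52e-11), a 2.04-fold fall. With isoproterenol the values were 152, 167, 151 and 144 RPM and 74.6, 77.2, 78.6 and 84.3 RPM, again without overlap, and the change was −0.90 ± 0.07 (limma adjusted p = 4.13e-10).

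Rab5a (ENSMUSG00000017831.8, chr17:53479234-53507680 on the plus strand), the lowest of the Rab5 transcripts in RPM, fell as well. It was at 6.14, 6.72, 5.76 and 5.58 RPM with control siRNA and at 3.76, 3.89, 4.37 and 2.76 RPM with Cebpb siRNA, groups that did not overlap. The log2 change was −0.64 ± 0.15 (limma adjusted p = 0.000851). With isoproterenol the values were 7.62, 7.58, 7.08 and 5.45 RPM and 3.72, 3.49, 4.49 and 3.23 RPM, again without overlap, and the change was −0.82 ± 0.15 (limma adjusted p = 5.91e-05). In experiment 2 alone neither change passed the threshold. Rab5b (ENSMUSG00000000711.3, chr10:128677175-128696264 on the minus strand) went the other way, from 20.8, 19.0, 21.5 and 17.9 RPM to 29.2, 30.3, 27.8 and 32.7 RPM. All 4 Cebpb siRNA libraries were above all 4 controls, with a log2 change of 0.69 ± 0.10 (limma adjusted p = 4.47e-06). With isoproterenol the values were 22.4, 19.4, 19.5 and 16.5 RPM and 26.2, 29.6, 23.8 and 20.5 RPM, where the lowest Cebpb siRNA library lay below the highest control, and the change was 0.42 ± 0.10 (limma adjusted p = 0.000967).

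As reads come from transcript ends, RPM of the Rab5 genes were summed without a correction for length. The sum was 166.6 ± 8.77 RPM with control siRNA and 99.0 ± 8.54 with Cebpb siRNA (SD, n = 4), and 179.9 ± 11.8 and 107.4 ± 2.35 with isoproterenol. Rab5c made up 84.5% ± 1.25 of it with control siRNA and 65.7% ± 3.93 with Cebpb siRNA. Rab5b made up 11.9% ± 1.17 and 30.5% ± 4.33, while Rab5a lay between 3.10% and 4.29% in those 8 libraries. The log2 ratio of Rab5b to Rab5c within a library, which no scaling between libraries can change, was higher with Cebpb siRNA by 1.72 without and 1.32 with isoproterenol. The groups did not overlap (exact two-sided permutation test, p = 0.0286, the smallest that 4 against 4 allow, and adjusted p = 0.0429 over 18 ratio tests). Ratios of genes other than close relatives were not tested, so this separation has no background.

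**Figure D2:**
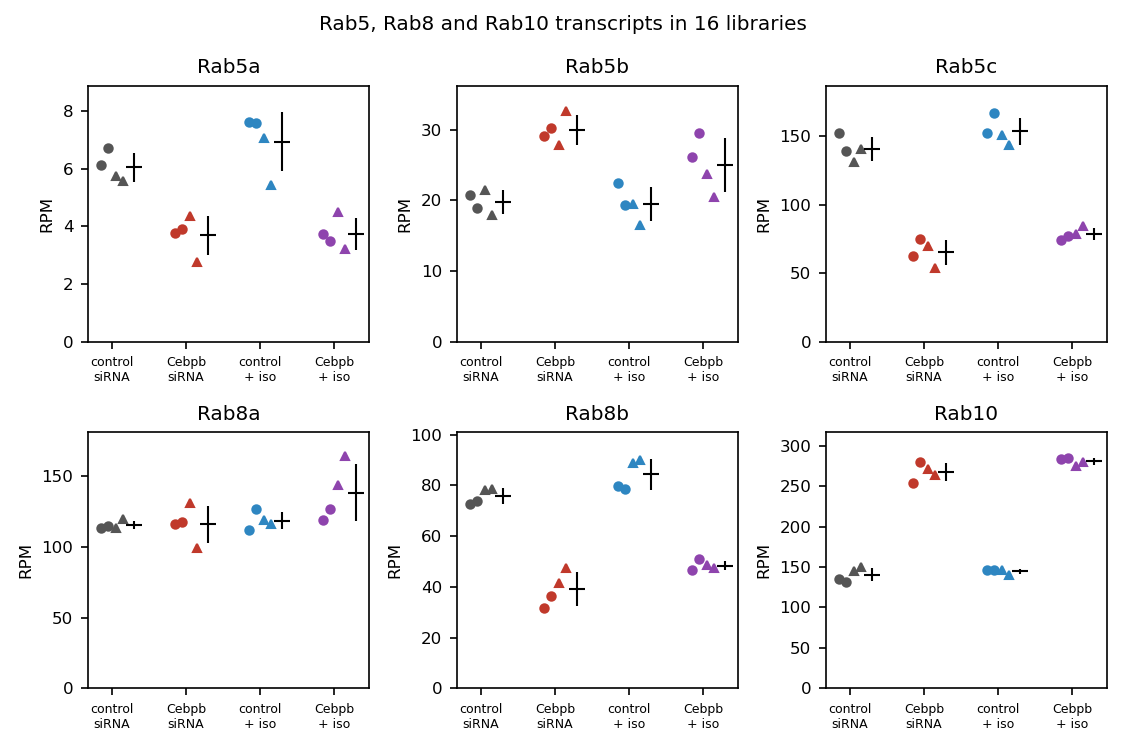
RPM of Rab5a, Rab5b, Rab5c, Rab8a, Rab8b and Rab10 in each of the 16 libraries, with circles for experiment 1, triangles for experiment 2 and a black mark for the mean ± SD of a group (n = 4). Rab5c and Rab8b are lower and Rab10 higher in every Cebpb siRNA library than in every control library with the same agent, while Rab8a overlaps.

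Of the other early endosomal genes, Rab22a, which sorts cargo between early and recycling endosomes, rose from 53.4, 49.7, 44.8 and 50.7 RPM to 60.9, 60.1, 57.8 and 61.7 RPM. All libraries with Cebpb siRNA were above all controls, at a log2 change of 0.36 ± 0.06 (limma adjusted p = 4.52e-05). Under isoproterenol Rab22a went from 49.1, 53.7, 45.5 and 45.0 RPM to 67.2, 67.4, 57.1 and 60.8 RPM, also without overlap (0.45 ± 0.06, limma adjusted p = 2.64e-06). Its relative Rab31, which acts between the trans-Golgi and endosomes, was at 31.7, 28.2, 26.1 and 28.4 RPM and 27.5, 28.9, 25.0 and 34.0 RPM, with overlap and a change of 0.09 ± 0.10 (limma adjusted p = 0.419). With isoproterenol Rab31 was at 33.6, 35.1, 29.0 and 34.6 RPM and 34.7, 33.2, 28.3 and 26.6 RPM (−0.05 ± 0.10, limma adjusted p = 0.694). Rab21, a regulator of integrin uptake, rose slightly without isoproterenol, from 74.9, 62.3, 67.9 and 73.5 RPM to 71.6, 76.3, 70.8 and 74.6 RPM. The groups overlapped, and the change of 0.16 ± 0.07 (limma adjusted p = 0.0368) was 0.11 (adjusted p = 0.166) without control siRNA replicate 2 of experiment 1. It was 0.16 (adjusted p = 0.0765) and 0.13 (adjusted p = 0.0987) without control siRNA replicate 1 and Cebpb siRNA replicate 2 of experiment 2, and 0.08 (adjusted p = 0.356) with no scaling. With isoproterenol Rab21 was at 76.2, 72.7, 75.5 and 73.5 RPM and 75.2, 84.9, 69.6 and 71.2 RPM (0.08 ± 0.07, limma adjusted p = 0.323). Rab20, which is taken up with the isoproterenol comparison, did not pass in either siRNA comparison (0.09 ± 0.09 and −0.04 ± 0.09, adjusted p = 0.39 and 0.705).

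Among the 6 tested recycling Rabs, 3 were higher and 1 lower without isoproterenol, and 5 higher and 1 lower with it. The shares over all genes were 30.9% and 30.4% without and 31.6% and 30.3% with isoproterenol, and no compartment was tested against them. Rab11a, which marks the recycling endosome, was at 105, 95.8, 91.8 and 99.7 RPM with control siRNA and at 139, 141, 114 and 129 RPM with Cebpb siRNA. The groups did not overlap, and the log2 change was 0.49 ± 0.07 (limma adjusted p = 1.79e-06). With isoproterenol Rab11a was at 121, 119, 114 and 108 RPM and 149, 153, 127 and 109.9 RPM, where the groups overlapped and the change was 0.28 ± 0.07 (limma adjusted p = 0.00119). Rab11b, its close relative, was at 14.6, 15.1, 15.6 and 15.7 RPM and 16.2, 17.4, 17.7 and 13.3 RPM without isoproterenol (0.16 ± 0.10, limma adjusted p = 0.16) and rose with it, from 12.8, 14.8, 15.4 and 14.6 RPM to 16.9, 15.2, 16.4 and 19.8 RPM (0.31 ± 0.10, limma adjusted p = 0.00809). The groups overlapped in both cases. Only with isoproterenol was the change of Rab11b past the threshold, and the difference between the comparisons was 0.15 ± 0.14 (limma adjusted p = 0.95). In experiments 1 and 2 alone the change under isoproterenol was 0.27 (adjusted p = 0.068) and 0.34 (adjusted p = 0.0883).

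Rab14, which acts between the trans-Golgi and endosomes and on maturing phagosomes, rose from 229.5, 215, 204 and 206 RPM to 254, 270.3, 237 and 225 RPM. The groups overlapped by 1 library on each side, and the change was 0.29 ± 0.05 (limma adjusted p = 3.57e-05). Under isoproterenol Rab14 went from 223, 219, 219 and 208 RPM to 267, 279, 237 and 249 RPM, without overlap (0.31 ± 0.05, limma adjusted p = 1.33e-05). Rab35, a GTPase of fast recycling and phagocytosis, was at 45.1, 44.7, 57.1 and 50.3 RPM and 48.6, 52.0, 53.5 and 54.5 RPM without isoproterenol. The groups overlapped, and the change of 0.17 ± 0.07 (limma adjusted p = 0.0265) was 0.16 (adjusted p = 0.0692), 0.17 (adjusted p = 0.0574) and 0.15 (adjusted p = 0.0869) without control siRNA replicates 1 and 2 of experiment 1 and control replicate 2 of experiment 2. It was 0.17 (adjusted p = 0.0536) without Cebpb siRNA replicate 2 of experiment 1, and 0.09 (adjusted p = 0.295) with no scaling. With isoproterenol Rab35 rose from 45.0, 47.2, 51.8 and 54.5 RPM to 54.8, 58.7, 65.7 and 54.9 RPM, with no library of one group inside the range of the other (0.30 ± 0.07, limma adjusted p = 0.000343).

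Rab4a, which returns cargo quickly to the cell surface, was at 5.04, 5.62, 6.10 and 4.07 RPM and 5.50, 5.99, 5.72 and 5.20 RPM without isoproterenol, and these groups overlapped (0.21 ± 0.13, limma adjusted p = 0.177). Under isoproterenol it was at 3.56, 4.30, 4.39 and 4.17 RPM with control siRNA and at 6.57, 7.30, 6.69 and 6.80 RPM with Cebpb siRNA, groups that lay apart by more than their spread, and it rose 1.75-fold (0.81 ± 0.13, limma adjusted p = 1.28e-05). The difference between these comparisons, 0.60 ± 0.18 on the log2 scale, did not pass the test (limma adjusted p = 0.33). Rab12 (ENSMUSG00000023460.13, chr17:66494512-66519729 on the minus strand), which directs the transferrin receptor from recycling endosomes to lysosomes, was the recycling Rab that fell. It was at 72.6, 67.6, 69.7 and 68.1 RPM with control siRNA and at 37.9, 42.6, 45.3 and 34.8 RPM with Cebpb siRNA, with a change of −0.71 ± 0.09 (limma adjusted p = 3.74e-07). The values with isoproterenol were 74.1, 76.0, 68.3 and 62.5 RPM and 33.0, 43.5, 40.8 and 45.0 RPM (−0.73 ± 0.09, limma adjusted p = 2.42e-07), and in neither comparison did the groups overlap.

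Of the 6 tested Rabs of late endosomes and lysosomes, 1 was higher and 2 lower without isoproterenol, and 1 higher and 3 lower with it. Over all genes 30.9% were higher and 30.4% lower without isoproterenol, and 31.6% and 30.3% with it. Rab7, which drives fusion of late endosomes and phagosomes with lysosomes, was at 126, 120.3, 114 and 126 RPM with control siRNA and at 92.1, 108, 92.7 and 93.7 RPM with Cebpb siRNA. All 4 Cebpb siRNA libraries were below the controls, by a small step of −0.25 ± 0.05 (limma adjusted p = 0.000506). With isoproterenol the values were 133, 130.4, 130.1 and 126 RPM and 112, 110.1, 103 and 111 RPM (−0.18 ± 0.05, limma adjusted p = 0.00605), again without overlap. In experiment 2 alone neither change of Rab7 passed.

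Rab7b, a relative of Rab7 that acts on toll-like receptor traffic in macrophages, was at 69.8, 74.6, 108 and 102 RPM and 83.8, 80.7, 105 and 104 RPM. Experiment 2 was higher than experiment 1 in both groups, the groups overlapped, and the change with the experiment as a term was 0.18 ± 0.07 (limma adjusted p = 0.0372). It was 0.14 (adjusted p = 0.128), 0.17 (adjusted p = 0.0737) and 0.14 (adjusted p = 0.117) without control siRNA replicate 1 of experiment 1, control siRNA replicate 2 of experiment 2 and Cebpb siRNA replicate 1 of experiment 1, and 0.09 (adjusted p = 0.31) with no scaling. With isoproterenol Rab7b was at 75.6, 93.9, 112 and 122 RPM and 102, 101, 151 and 120.3 RPM (0.30 ± 0.07, limma adjusted p = 0.000903). Without a term for the experiment neither change of Rab7b passed.

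Rab24, linked to autophagy, was at 49.1, 44.2, 39.2 and 45.4 RPM with control siRNA and at 28.7, 32.2, 27.2 and 23.9 RPM with Cebpb siRNA. The log2 change was −0.59 ± 0.07 (limma adjusted p = 3.6e-07). Under isoproterenol Rab24 went from 48.7, 53.9, 45.3 and 44.1 RPM to 27.8, 31.7, 30.5 and 30.4 RPM (−0.60 ± 0.07, limma adjusted p = 2.21e-07). Neither comparison showed overlap. Its annotated exons share 1258 bases with Prelid1 on the opposite strand, and the sources used do not say whether reads were counted by strand. Rab32, a GTPase of lysosome-related organelles that also acts on bacterial vacuoles in macrophages, was at 17.4, 14.0, 21.2 and 18.4 RPM and 14.1, 18.7, 16.3 and 18.8 RPM without isoproterenol (0.03 ± 0.10, limma adjusted p = 0.823). Under isoproterenol Rab32 was lower with Cebpb siRNA, 18.2, 20.1, 19.8 and 17.4 RPM against 22.3, 24.1, 24.9 and 28.0 RPM, groups that did not overlap (−0.33 ± 0.10, limma adjusted p = 0.00685). Rab9, which returns mannose 6-phosphate receptors to the Golgi, was at 6.30, 7.29, 6.45 and 9.20 RPM and 7.11, 8.94, 6.16 and 7.11 RPM without isoproterenol and at 6.43, 8.07, 7.03 and 8.28 RPM and 9.12, 8.25, 8.46 and 7.29 RPM with it. It overlapped and passed in neither comparison (0.09 ± 0.13 and 0.22 ± 0.13, adjusted p = 0.566 and 0.154). Rab34, which positions lysosomes, did not pass either (−0.12 ± 0.13 and −0.26 ± 0.13, adjusted p = 0.442 and 0.0909).

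Between ER and Golgi, 5 of 12 tested Rabs were higher and 3 lower without isoproterenol, and 5 higher and 4 lower with it. The shares over all genes were 30.9% and 30.4% without and 31.6% and 30.3% with isoproterenol. Rab39 (ENSMUSG00000055069.3, chr9:53684110-53706232 on the minus strand), a Golgi and endosomal GTPase, was at 2.41, 3.51, 3.82 and 3.93 RPM with control siRNA and at 8.14, 7.74, 7.83 and 8.07 RPM with Cebpb siRNA. This 2.51-fold rise (1.33 ± 0.14, limma adjusted p = 4.5e-08) was the largest fitted increase among the 41 GTPases without isoproterenol. With isoproterenol Rab39 went from 4.55, 4.93, 4.30 and 4.004 RPM to 8.97, 10.4, 10.3 and 8.12 RPM (1.15 ± 0.14, limma adjusted p = 3.51e-07), and the groups lay apart in both comparisons. Rab33b (ENSMUSG00000027739.9, chr3:51483920-51496232 on the plus strand), a Golgi GTPase that binds the autophagy protein Atg16l1, showed the largest fitted fall, from 7.66, 9.13, 10.4 and 8.89 RPM to 4.09, 3.69, 3.22 and 4.35 RPM. Its change was −1.15 ± 0.13 (limma adjusted p = 1.07e-07) without isoproterenol. With isoproterenol it went from 9.45, 7.91, 8.51 and 9.34 RPM to 4.01, 4.76, 5.05 and 4.99 RPM (−0.84 ± 0.13, limma adjusted p = 8.05e-06), and no Cebpb siRNA library reached a control library.

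Rab19, a little-studied Golgi GTPase close to the floor, was at 1.99, 1.36, 1.04 and 1.47 RPM and 3.25, 3.10, 2.503 and 2.87 RPM without isoproterenol. All Cebpb siRNA libraries were above all controls (1.10 ± 0.19, limma adjusted p = 4.15e-05 without and 1.32 ± 0.19, limma adjusted p = 3.59e-06 with isoproterenol), with control values near the floor of 1.073 RPM. Rab1a, which controls transport from ER to Golgi, was at 212, 197, 329.6 and 291 RPM and 172, 185, 209.6 and 281 RPM without isoproterenol, with higher values in experiment 2 and with overlap (−0.19 ± 0.13, limma adjusted p = 0.201). Under isoproterenol Rab1a was at 218, 238, 315 and 384 RPM and 214, 208, 246 and 178 RPM, with overlap and a change of −0.36 ± 0.13 (limma adjusted p = 0.0194). Without replicate 2 of experiment 2 of control siRNA with isoproterenol that change was −0.27 (adjusted p = 0.0757). It was −0.19 (adjusted p = 0.0806) without replicate 2 of experiment 2 of Cebpb siRNA with isoproterenol. In experiment 1 alone it was −0.06 (adjusted p = 0.434), and with no experiment term −0.36 (adjusted p = 0.135). Rab1b, its near relative, rose from 31.3, 28.7, 27.3 and 29.0 RPM to 32.4, 34.1, 35.1 and 33.3 RPM (0.30 ± 0.07, limma adjusted p = 0.00103) and with isoproterenol from 27.0, 28.0, 29.3 and 28.7 RPM to 37.0, 39.0, 31.0 and 35.0 RPM (0.39 ± 0.07, limma adjusted p = 6.55e-05). In both comparisons of Rab1b every Cebpb siRNA library was above every control.

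Rab2a, which acts on membranes between ER and Golgi, was at 81.8, 89.0, 103 and 97.1 RPM and 73.9, 74.7, 79.1 and 67.4 RPM without isoproterenol, without overlap (−0.24 ± 0.07, limma adjusted p = 0.00314). With isoproterenol it was at 86.1, 93.8, 99.9 and 108 RPM and 75.5, 77.6, 86.4 and 75.5 RPM (−0.23 ± 0.07, limma adjusted p = 0.00459), where 1 library of each group lay within the range of the other. Rab2b moved the other way, from 5.14, 5.18, 5.06 and 5.09 RPM to 7.15, 8.04, 8.82 and 8.38 RPM (0.74 ± 0.15, limma adjusted p = 0.000147), and its exons share 195 bases with Tox4 on the opposite strand. With isoproterenol Rab2b went from 6.28, 4.14, 5.18 and 5.18 RPM to 7.59, 8.88, 6.31 and 10.2 RPM (0.73 ± 0.15, limma adjusted p = 0.00018). Rab18, found on ER and lipid droplets, fell from 49.2, 46.8, 52.8 and 51.0 RPM to 34.4, 36.2, 35.1 and 41.5 RPM (−0.36 ± 0.09, limma adjusted p = 0.00149). The values of Rab18 with isoproterenol were 51.6, 49.3, 49.8 and 58.1 RPM and 43.0, 40.5, 37.3 and 31.7 RPM (−0.39 ± 0.09, limma adjusted p = 0.000617), without overlap in either comparison.

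Rab6a, a GTPase of traffic within and from the Golgi, was at 76.7, 74.3, 87.4 and 89.4 RPM and 67.0, 71.7, 73.7 and 74.2 RPM without isoproterenol, where all Cebpb siRNA libraries were below the controls but the change did not pass (−0.11 ± 0.06, limma adjusted p = 0.14). The unscaled value of that change was −0.19 (adjusted p = 0.0172), and its exons share 708 bases with Mrpl48 on the opposite strand. With isoproterenol Rab6a was at 77.8, 78.8, 89.7 and 92.0 RPM and 78.3, 82.2, 80.1 and 73.2 RPM (−0.04 ± 0.06, limma adjusted p = 0.598), with overlap. Rab29, which recruits the kinase LRRK2 to the Golgi, was called higher in both comparisons (0.29 ± 0.10, limma adjusted p = 0.0174 without and 0.26 ± 0.10, limma adjusted p = 0.03 with isoproterenol) with overlapping groups. Its call was lost with no scaling, at 0.20 (adjusted p = 0.105) and 0.20 (adjusted p = 0.121). Without isoproterenol it was also lost without control siRNA replicate 1 of experiment 2, at 0.20 (adjusted p = 0.0952), and without Cebpb siRNA replicates 1 of experiments 1 and 2, at 0.26 (adjusted p = 0.0543) and 0.22 (adjusted p = 0.0763). With isoproterenol it was lost without any 1 of 4 libraries, all of them with isoproterenol. It was 0.25 (adjusted p = 0.0614) without control siRNA with isoproterenol replicate 1 of experiment 1. Without replicate 2 of experiment 2 of that group it was 0.23 (adjusted p = 0.0813). It was 0.22 (adjusted p = 0.0964) and 0.19 (adjusted p = 0.121) without Cebpb siRNA with isoproterenol replicates 1 and 2 of experiment 2. Rab30 and Rab43, both of the Golgi, were above the floor in 9 and 11 libraries at no more than 2.09 and 1.66 RPM, and passed in neither comparison (adjusted p = 0.979 and 0.501 for Rab30, 0.64 and 0.199 for Rab43).

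On secretory routes the gene with the smallest adjusted p of all 41 GTPases was Rab10 (ENSMUSG00000020671.9, chr12:3247428-3309969 on the minus strand), which delivers vesicles to the plasma membrane and in macrophages carries toll-like receptor 4 to the surface. It was at 136, 132, 145 and 149.9 RPM with control siRNA and at 254, 279.6, 272 and 264 RPM with Cebpb siRNA, a 2.02-fold rise of 1.01 ± 0.05 (limma adjusted p = 2.38e-13). With isoproterenol the values were 146, 146, 146 and 140.0 RPM and 284, 285, 275 and 279.7 RPM (1.02 ± 0.05, limma adjusted p = 1.61e-13), so that the siRNA groups lay far apart with and without the agonist. Rab8b (ENSMUSG00000036943.9, chr9:66843664-66919687 on the minus strand), which acts in delivery to the plasma membrane, went down. Its values were 72.7, 73.7, 78.1 and 78.7 RPM with control siRNA and 31.5, 36.5, 41.5 and 47.3 RPM with Cebpb siRNA, without overlap (−0.88 ± 0.08, limma adjusted p = 2.17e-09). With isoproterenol they were 79.7, 78.5, 89.0 and 90.2 RPM and 46.7, 51.0, 48.5 and 47.4 RPM (−0.73 ± 0.08, limma adjusted p = 3.59e-08), again without overlap.

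Rab8a, the close relative of Rab8b, was at 113, 115, 114 and 119.5 RPM and 116, 117, 131 and 98.9 RPM without isoproterenol, and these groups overlapped (0.09 ± 0.08, limma adjusted p = 0.371). Under isoproterenol Rab8a was at 112, 127, 119 and 116 RPM and 119, 127, 144 and 164 RPM, with overlap and a change of 0.28 ± 0.08 (limma adjusted p = 0.00474). In experiment 1 alone that change was 0.09 (limma adjusted p = 0.323). Rab8a made up 60.3% ± 0.787 of the summed Rab8 transcripts with control siRNA and 74.6% ± 4.82 with Cebpb siRNA, and 58.4% ± 2.43 and 73.9% ± 2.91 with isoproterenol (SD, n = 4). The exons of Rab10 share 143 bases with those of Rab10os on the opposite strand.

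Rab13, a GTPase of cell junctions and exocytosis, fell without isoproterenol, from 6.14, 7.29, 7.59 and 7.504 RPM to 4.66, 4.84, 5.48 and 2.97 RPM, without overlap (−0.61 ± 0.16, limma adjusted p = 0.00244). Under isoproterenol Rab13 was at 6.43, 9.85, 7.68 and 6.94 RPM and 5.69, 6.54, 5.47 and 7.24 RPM (−0.23 ± 0.16, limma adjusted p = 0.221). Rab27a, which docks secretory granules and exosomes, was at 8.87, 8.82, 5.81 and 7.46 RPM and 5.69, 7.79, 4.77 and 3.18 RPM without isoproterenol. It fell, with a log2 change of −0.50 ± 0.16 (limma adjusted p = 0.00851), although the groups overlapped, and the call was lost with no term for the experiment, at −0.50 (adjusted p = 0.0831), and within each experiment. With isoproterenol Rab27a was at 8.01, 9.15, 5.69 and 5.61 RPM and 6.49, 5.96, 4.02 and 6.46 RPM (−0.24 ± 0.16, limma adjusted p = 0.192). The differences between the 2 comparisons, 0.38 ± 0.23 for Rab13 and 0.26 ± 0.22 for Rab27a, did not pass (adjusted p = 0.878 and 0.943).

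Rab3d, of secretory granules, was at 12.2, 12.6, 8.44 and 8.89 RPM and 15.5, 14.7, 9.97 and 9.66 RPM without isoproterenol, with lower values in experiment 2 in both groups. It rose by 0.32 ± 0.10 (limma adjusted p = 0.00888), and by 0.23 (adjusted p = 0.0534) with no scaling. With isoproterenol Rab3d was at 11.2, 12.6, 7.58 and 8.97 RPM and 17.5, 16.9, 9.12 and 12.3 RPM (0.51 ± 0.10, limma adjusted p = 0.000121), and without a term for the experiment neither change passed. Rab3a, its relative on synaptic vesicles and granules, passed in neither comparison (−0.27 ± 0.16 and 0.34 ± 0.16, adjusted p = 0.146 and 0.0631).

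Summed over each library, the secretory GTPases were at 361.8 ± 10.8 RPM with control siRNA and 448.6 ± 21.5 with Cebpb siRNA (SD, n = 4), and at 377.1 ± 8.93 and 499.1 ± 16.1 with isoproterenol. The lowest Cebpb siRNA library (428.3 RPM) was above the highest control (376.8). Rab10 alone went from 141 ± 8.21 to 267 ± 10.9 RPM without isoproterenol, a larger rise than that of the sum. Of the 7 tested secretory GTPases, 2 were called higher and 3 lower without isoproterenol, and 3 and 1 with it. Their median log2 change was −0.27 without and 0.28 with isoproterenol. Of the 7 early endosomal GTPases, 3 were higher and 2 lower without isoproterenol, and 2 and 2 with it. The shares over all genes were 30.9% and 30.4% without and 31.6% and 30.3% with isoproterenol. The early endosomal sum was at 331.4 ± 18.6 and 278.4 ± 8.60 RPM without isoproterenol, and the late endosomal sum at 284.7 ± 17.7 and 246.9 ± 10.8, neither with overlap. Rab5c alone went from 140.7 ± 8.65 to 65.3 ± 9.20 RPM, a larger fall than that of the early endosomal sum. Under isoproterenol the early endosomal sums (358.6 ± 16.3 and 297.8 ± 13.4 RPM) did not overlap either, while the late endosomal sums (317.3 ± 17.3 and 290.2 ± 19.1 RPM) did. The recycling sum was at 451.2 ± 13.9 and 491.1 ± 30.2 RPM without isoproterenol, with overlap, and at 471.1 ± 13.4 and 515.8 ± 33.2 RPM with it, without overlap. The ER and Golgi sum was at 565.1 ± 78.9 and 490.7 ± 47.4 RPM without and at 610.3 ± 95.7 and 514.3 ± 33.4 RPM with isoproterenol, with overlap in both. These sums are descriptions without a test, and each is dominated by its most abundant transcripts.

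**Figure D3:**
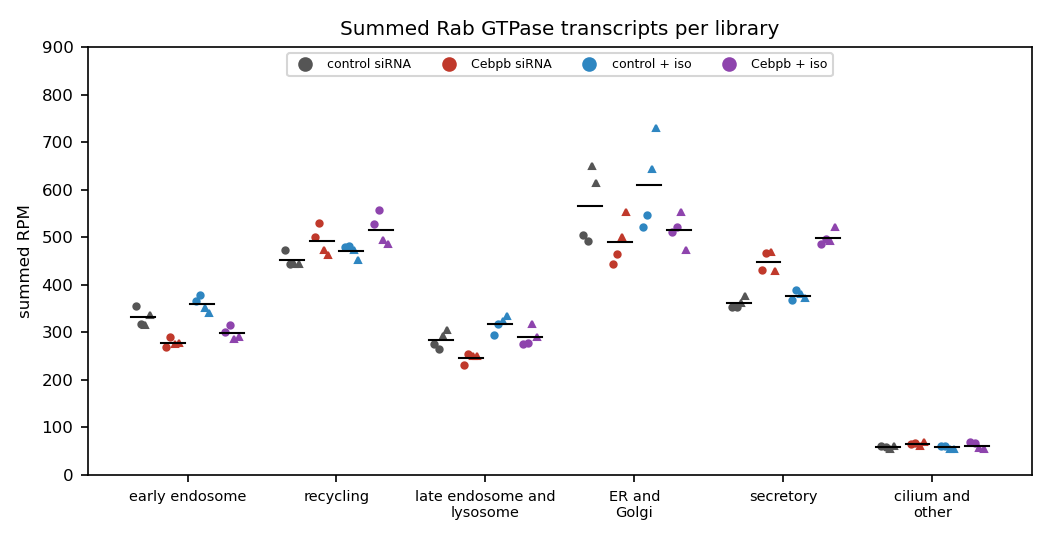
Summed RPM of the tested Rab GTPases of each compartment in each of the 16 libraries, coloured by group, with circles for experiment 1, triangles for experiment 2 and a black line for the group mean (n = 4). The secretory sums are higher and the early endosomal sums lower with Cebpb siRNA, without overlap, while the ER and Golgi sums are spread between experiments. Single members of the secretory and early endosomal sets moved in both directions.

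Of the 3 tested Rabs of the remaining group, 1 rose and 2 fell in both comparisons. Of all genes 30.9% rose and 30.4% fell without isoproterenol, and 31.6% and 30.3% with it. Rab28, a ciliary GTPase, was at 26.6, 24.9, 21.0 and 23.7 RPM with control siRNA and at 40.6, 42.6, 34.2 and 48.0 RPM with Cebpb siRNA, without overlap (0.86 ± 0.11, limma adjusted p = 1e-06). With isoproterenol Rab28 was at 30.9, 28.1, 22.1 and 24.6 RPM and 51.8, 43.3, 33.9 and 29.5 RPM, where 1 Cebpb siRNA library lay within the control range (0.63 ± 0.11, limma adjusted p = 5.64e-05). Rab23, a negative regulator of Hedgehog signalling, fell from 5.93, 6.32, 6.30 and 5.76 RPM to 3.20, 4.09, 3.42 and 2.33 RPM (−0.84 ± 0.15, limma adjusted p = 6.01e-05) and with isoproterenol from 6.33, 6.37, 7.12 and 5.82 RPM to 2.41, 3.68, 3.18 and 3.28 RPM (−0.98 ± 0.15, limma adjusted p = 8.91e-06). No library of Rab23 lay within the range of the other siRNA group. Rab40c, which recruits a ubiquitin ligase through a SOCS box, fell from 27.6, 27.4, 27.3 and 30.6 RPM to 22.02, 21.4, 23.2 and 18.4 RPM (−0.33 ± 0.09, limma adjusted p = 0.00436), and with isoproterenol by 0.36 (adjusted p = 0.00183).

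Of the 8 tested regulators that share the pattern, 4 were higher and 0 lower in each siRNA comparison, against 30.9% and 30.4% of all genes without and 31.6% and 30.3% with isoproterenol. With no scaling Rab11fip2 (−0.36 (adjusted p = 0.0229) without isoproterenol) and Rab3il1 (−0.38 (adjusted p = 0.042) without and −0.40 (adjusted p = 0.031) with it) were called lower. Rab3gap1, the catalytic subunit of a complex that acts on Rab3 and Rab18, was at 91.3, 92.4, 95.1 and 95.5 RPM and 131, 141, 136 and 134 RPM, groups far apart (0.62 ± 0.05, limma adjusted p = 3.19e-10). With isoproterenol the values were 98.4, 104, 96.0 and 99.5 RPM and 140.0, 149, 149.5 and 146 RPM, also without overlap (0.62 ± 0.05, limma adjusted p = 2.81e-10). Its partner Rab3gap2 was also called in both comparisons (0.30 ± 0.08 and 0.23 ± 0.08, adjusted p = 0.0036 and 0.0249), and 2034 bases of its exons overlap Iars2 on the opposite strand. With isoproterenol that call was lost with no scaling, at 0.16 (adjusted p = 0.106). It was also lost without replicates 2 of experiments 1 and 2 of control siRNA with isoproterenol, at 0.20 (adjusted p = 0.0776) and 0.18 (adjusted p = 0.0937). The same held for Cebpb siRNA with isoproterenol. Without its replicate 1 of experiment 1 or 2 of experiment 2 the change was 0.19 (adjusted p = 0.0753) and 0.16 (adjusted p = 0.119). Rab11fip1, an effector that links Rab11 to its cargo carriers, went from 19.3, 19.1, 18.6 and 18.0 RPM to 26.3, 26.7, 27.4 and 25.7 RPM (0.58 ± 0.07, limma adjusted p = 4.41e-07). With isoproterenol Rab11fip1 went from 18.2, 21.6, 19.8 and 20.3 RPM to 32.5, 32.0, 37.0 and 36.2 RPM (0.85 ± 0.07, limma adjusted p = 1.23e-09), again with the groups apart. Rab11fip5 rose by 0.48 ± 0.11 and 0.42 ± 0.11 (adjusted p = 0.000783 and 0.00243), while Rab11fip2, Rab11fip3, Rab3ip and Rab3il1 did not pass in either.

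Both antisense transcripts were higher in both comparisons, against 30.9% of all genes without and 31.6% with isoproterenol. Rab26os (ENSMUSG00000093565.1, chr17:24528248-24528744 on the plus strand) was at 11.2, 10.5, 18.7 and 17.9 RPM with control siRNA and at 34.3, 33.0, 29.3 and 36.3 RPM with Cebpb siRNA, groups far apart (1.32 ± 0.14, limma adjusted p = 3.14e-08). Under isoproterenol it went from 11.2, 12.1, 16.6 and 20.1 RPM to 36.2, 35.6, 42.2 and 33.0 RPM (1.40 ± 0.14, limma adjusted p = 1.2e-08). Rab26 itself was listed at 0 in all 16 libraries, and the annotated exon of Rab26os holds the small nucleolar RNA Snord60. Rab10os was at 10.3, 10.1, 15.9 and 12.7 RPM and 13.8, 16.1, 15.6 and 15.2 RPM, with overlap (0.41 ± 0.09, limma adjusted p = 0.0006). Its exons share 143 bases with those of Rab10, and reads within them cannot be told apart if strand was not used.

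Ratios between close relatives within a library were tested for 9 pairs in each siRNA comparison, 18 tests in all. Besides Rab5b to Rab5c, the log2 ratio of Rab5a to Rab5b was lower with Cebpb siRNA, with changes of −1.33 and −1.25 without and with isoproterenol, and so was that of Rab2a to Rab2b, with −0.98 and −0.96. The ratio of Rab8a to Rab8b was higher by 0.97 and 1.01, and that of Rab22a to Rab31 by 0.27 and 0.50. In all of these the groups did not overlap (exact two-sided permutation p = 0.0286, adjusted p = 0.0429). Rab5a to Rab5c was higher by 0.39 without isoproterenol at the same p, while with isoproterenol it differed by 0.07 with overlap (exact permutation p = 0.657). The ratio of Rab1a to Rab1b changed by −0.75 with isoproterenol (exact permutation p = 0.0286, adjusted p = 0.0429) and by −0.49 without it, with overlap (exact permutation p = 0.114). Neither Rab11a to Rab11b (0.33 and −0.03) nor Rab7 to Rab7b (−0.42 and −0.49) passed in either comparison, with exact permutation p from 0.0571 to 0.886. The p of 0.0286 is the smallest these permutations allow, so neither it nor its adjusted value ranks the ratios. Of all 11060 tested genes, 6783 were called without and 6854 with isoproterenol. Ratios of other gene pairs were not tested. The separations thus have no background and are not read as particular to relatives. The permutations also leave the experiment out. Within each experiment the siRNA groups did not overlap for Rab7 to Rab7b, with changes of −0.49 and −0.35 in experiments 1 and 2 without isoproterenol and −0.51 and −0.46 with it. The same held for Rab1a to Rab1b without isoproterenol (−0.35 and −0.63) and for Rab11a to Rab11b without isoproterenol (0.30 and 0.37). With 2 libraries on each side, groups often lie apart by chance, so this separation is a description and no test.

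Isoproterenol moved few Rab transcripts. In control siRNA cells 2 of 41 tested GTPases were higher (4.9%) and 0 lower, against 1.21% and 0.443% of all tested genes. Rab20 (ENSMUSG00000031504.6, chr8:11453518-11478710 on the minus strand), which acts in phagosome maturation in macrophages, was at 16.7, 13.5, 18.4 and 19.2 RPM without the agonist and at 24.0, 22.4, 22.7 and 22.5 RPM with it. All 4 libraries with isoproterenol were above all 4 without, at a change of 0.41 ± 0.09 (limma adjusted p = 0.0189). Without control siRNA replicate 2 of experiment 1 it was 0.36 (adjusted p = 0.0909), without replicate 1 of experiment 2 it was 0.41 (adjusted p = 0.0537), and without the isoproterenol replicates 1 and 2 of experiment 1 it was 0.33 (adjusted p = 0.104) and 0.39 (adjusted p = 0.0773). Exons of Rab20 share 356 bases with E230013L22Rik on the opposite strand.

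Rab32 (ENSMUSG00000019832.5, chr10:10545002-10558265 on the minus strand) was at 17.4, 14.0, 21.2 and 18.4 RPM without and at 22.3, 24.1, 24.9 and 28.0 RPM with isoproterenol, again without overlap (0.46 ± 0.10, limma adjusted p = 0.0128). The change was 0.38 (adjusted p = 0.0711) and 0.45 (adjusted p = 0.0524) without control siRNA replicates 2 of experiments 1 and 2, and 0.43 (adjusted p = 0.0611) without isoproterenol replicate 2 of experiment 2. With no term for the experiment Rab20 was at 0.41 (adjusted p = 0.278) and Rab32 at 0.46 (adjusted p = 0.118), so that the calls were lost at the same size of change. In experiment 2 alone they were at 0.25 (adjusted p = 1) and 0.40 (adjusted p = 0.715). In Cebpb siRNA cells Rab20 was at 13.9, 15.7, 20.4 and 18.5 RPM and 18.4, 20.1, 24.0 and 22.9 RPM (0.28 ± 0.09, limma adjusted p = 0.0903), and Rab32 at 14.1, 18.7, 16.3 and 18.8 RPM and 18.2, 20.1, 19.8 and 17.4 RPM (0.11 ± 0.10, limma adjusted p = 0.592). The control siRNA libraries with isoproterenol enter both the isoproterenol change of Rab32 and its siRNA change under isoproterenol.

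In Cebpb siRNA cells 3 of 41 GTPases were higher with isoproterenol (7.3%) and 0 lower, against 3.0% and 2.48% of all tested genes. They are named because they were called, after their values were seen. Rab7b was at 83.8, 80.7, 105 and 104 RPM without and 102, 101, 151 and 120.3 RPM with the agonist, with overlap (0.29 ± 0.07, limma adjusted p = 0.0198). Rab3a went from 3.81, 5.14, 3.73 and 2.55 RPM to 6.93, 5.14, 5.38 and 5.04 RPM, with overlap (0.54 ± 0.16, limma adjusted p = 0.0427). Rab8b went from 31.5, 36.5, 41.5 and 47.3 RPM to 46.7, 51.0, 48.5 and 47.4 RPM, with overlap (0.27 ± 0.08, limma adjusted p = 0.0433). Rab11fip1 was also higher, from 26.3, 26.7, 27.4 and 25.7 RPM to 32.5, 32.0, 37.0 and 36.2 RPM, without overlap (0.33 ± 0.07, limma adjusted p = 0.00907).

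These calls in Cebpb siRNA cells rested on small margins. The call of Rab8b was lost in 13 of 16 fits that left out 1 library, at values of 0.19 to 0.29. It was kept only without control siRNA replicate 2 of experiment 1, Cebpb siRNA replicate 2 of experiment 2 or Cebpb siRNA with isoproterenol replicate 2 of experiment 2. The change of Rab8b was 0.49 in experiment 1 and 0.05 in experiment 2. In experiment 2 alone it did not pass (limma adjusted p = 0.834). The call of Rab3a was lost in 11 of 16, at 0.40 to 0.59. It was kept without replicate 2 of experiment 1 of control siRNA, of Cebpb siRNA or of Cebpb siRNA with isoproterenol, and without either experiment 2 library of control siRNA with isoproterenol. Leaving out Cebpb siRNA replicate 1 of experiment 1 gave 0.19 (adjusted p = 0.185) for Rab8b, and leaving out Cebpb siRNA replicate 2 of experiment 2 gave 0.40 (adjusted p = 0.143) for Rab3a. Rab7b was at 0.27 (adjusted p = 0.0567) and 0.27 (adjusted p = 0.0545) without Cebpb siRNA replicates 2 of experiment 1 and 1 of experiment 2. Without the isoproterenol replicates 1 of experiments 1 and 2 it was at 0.27 (adjusted p = 0.0515) and 0.23 (adjusted p = 0.0972). Only the call of Rab11fip1 held in all 16 such fits. In experiments 1 and 2 alone that call was lost, at 0.25 (adjusted p = 0.255) and 0.40 (adjusted p = 0.0874). The calls of Rab3a and Rab7b were lost in each experiment alone as well.

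**Figure D4:**
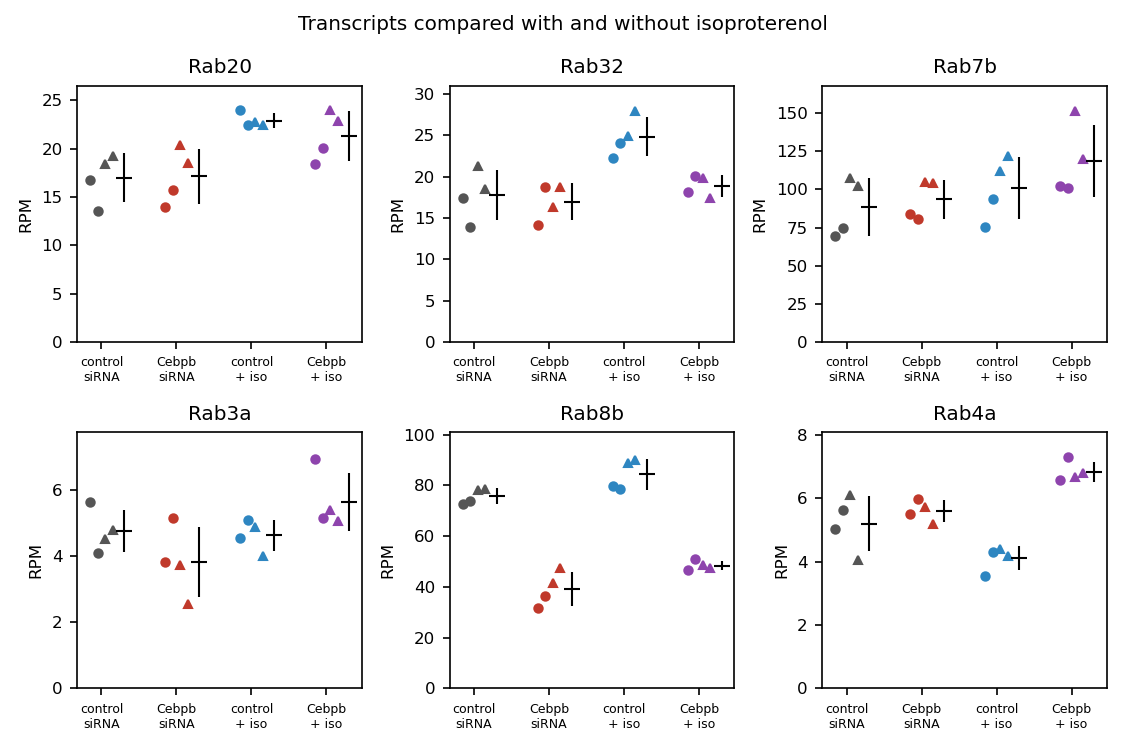
RPM of Rab20, Rab32, Rab7b, Rab3a, Rab8b and Rab4a in each of the 16 libraries, with circles for experiment 1, triangles for experiment 2 and a black mark for the mean ± SD of a group (n = 4). With control siRNA, Rab20 and Rab32 are higher with isoproterenol than without in every library, from 22.3 to 28.0 RPM against 13.5 to 21.2.

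Whether the isoproterenol response differed between the siRNA groups was tested directly. Limma called 0 of 41 Rab GTPases and 0 of 51 tested members, against 0.118% of all genes higher and 0.118% lower. At an unadjusted p under 0.05 there were 5 members, Rab4a (0.60 ± 0.18), Rab3a (0.61 ± 0.22), Rab11fip1 (0.27 ± 0.10), Rab32 (−0.35 ± 0.14) and Rab11a (−0.21 ± 0.10), with adjusted p from 0.33 to 0.745. These are 9.8% of the 51 tested members, against 697 of all 11060 genes (6.3%).

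The 3′ UTR word shown above was read against the siRNA changes of the 41 GTPases, all of which matched a transcript with a 3′ UTR. The longest annotated 3′ UTR was used for each gene. The 8-base form AACTTGTA was found in Rab5a and Rab12, both of which fell. The 7-base word AACTTGT without the final A was found in Rab5c, Rab18, Rab22a, Rab28, Rab32 and Rab40c. Without isoproterenol Rab5c, Rab18 and Rab40c fell, Rab22a and Rab28 rose and Rab32 did not pass, and with isoproterenol Rab32 fell too. Of 16 GTPases with only the inner 6 bases ACTTGT, 4 were lower and 6 higher without isoproterenol, and of 17 without them 4 were lower and 7 higher.

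Over all 10127 tested genes with a 3′ UTR, 56.5% of 460 genes with the 8-base form were lower without isoproterenol, 45.9% of 1103 with the 7-base word, 35.8% of 2427 with the inner 6 bases and 25.9% of 6137 with none. The genes with none had shorter 3′ UTRs, with a median of 915 bases against 2818 for the 8-base form. Because the word was found in the fold changes of these same genes, its match to the Rab5c, Rab5a and Rab12 changes is a description. The sources used do not give the siRNA's own sequence.

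**Figure D5:**
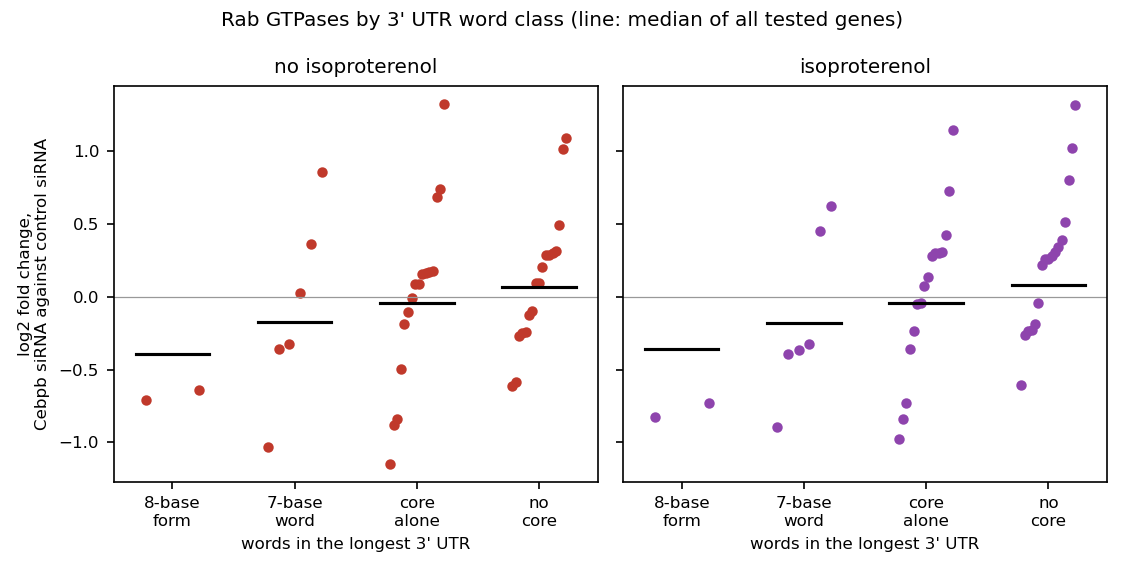
Log2 fold change between Cebpb siRNA and control siRNA for the 41 Rab GTPases (points), by the words in the longest 3′ UTR, with a black line for the median of all tested genes of that class. Both Rab genes with the 8-base form lie below 0, and the 6 with the 7-base word lie on both sides.

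RefSeq promoters matched 36 of the 41 tested GTPases, with 45 promoters. The full cAMP response element TGACGTCA was in 1 of these genes, Rab5a, at 28 bases before the start, and in 1.79% of all 32851 promoters and 3.28% of those of tested genes. Rab5a changed by 0.16 with isoproterenol in control cells (limma adjusted p = 0.804). The 5-base part TGACG was in 51.1% of the Rab promoters, against 20.8% of all promoters and 32.5% of those of tested genes, but it was not found in the windows of Rab20 and Rab32. The C/EBP word TTGCNNAA was in Rab1b, Rab29 and Rab43, 6.67% of the Rab promoters against 8.52% of those of tested genes. The E-box CACGTG was in Rab5a, Rab20, Rab21, Rab23, Rab24 and Rab27a, 13.3% against 10.5%, and in Rab20 it began 46 bases before the start.

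The genes that load, unload and serve Rab proteins were read from lists that hold no members. Those named for the siRNA change had the smallest adjusted p of their list without isoproterenol. They were picked by their values and do not stand for the lists. Their counts stand against 30.9% of all genes higher and 30.4% lower without isoproterenol, and 31.6% and 30.3% with it. Of 9 tested genes of GDP dissociation inhibitors and prenylation, 3 were higher and 3 lower without isoproterenol, and 3 and 4 with it. Gdi2, which extracts inactive Rab proteins from membranes, fell by 0.85 on the log2 scale (limma adjusted p = 1.92e-11), from 141.2 ± 17.3 to 73.4 ± 6.01 RPM (SD, n = 4). Chml and Chm encode the escort proteins that present new Rabs for prenylation, and they moved apart, by −0.99 ± 0.11 and 0.53 ± 0.08 (adjusted p = 9.2e-08 and 4.49e-06). Rabggtb, the catalytic subunit of the Rab prenylation enzyme, fell by 0.51 (adjusted p = 2.11e-06).

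Of 38 GEF genes 13 were higher and 10 lower without isoproterenol, and 9 and 10 with it. Gapvd1, an exchange factor for Rab5, went by −0.72 ± 0.06 (limma adjusted p = 3.27e-10) and Ankrd27, one for Rab21 and a partner of Rab32, by −0.90 ± 0.08 (8.68e-10). Madd, an exchange factor for Rab3 and Rab27, rose by 0.69 ± 0.07, and Dennd5a by 0.61 ± 0.07. Of 33 GAP genes 11 were higher and 8 lower, and 12 and 7 with isoproterenol. Evi5, linked to Rab11, went from 35.4 ± 1.90 to 9.77 ± 0.83 RPM, a change of −1.77 ± 0.08 (limma adjusted p = 2.98e-14). Tbc1d2b changed by −1.22 ± 0.11, while Rabgap1 rose by 0.73 ± 0.05 and Tbc1d9 by 1.49 ± 0.13.

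Of 39 endosomal effectors 9 were higher and 12 lower without isoproterenol, and 14 and 12 with it. The late endosomal partners Osbpl1a, which binds Rab7, and Vps39, of the tether for fusion with lysosomes, changed by −1.46 ± 0.11 and −1.02 ± 0.14 (limma adjusted p = 2.4e-10 and 1.59e-06). Vps35, the core of retromer, changed by −0.58 ± 0.07, and Ehbp1l1, a Rab8 effector, by 0.55 ± 0.08. Of 16 Golgi and secretory effectors 4 were higher and 6 lower, and 5 and 4 with isoproterenol. The mitotic kinesin Kif20a, a Rab6 partner, changed by −0.94 ± 0.09, Golgb1 by −0.58 ± 0.08, Gorasp2 by −0.55 ± 0.07 and Golga5 by 0.73 ± 0.09. With isoproterenol few of these genes moved. Few of all tested genes did so either, with 1.21% higher and 0.443% lower in control siRNA cells. In Cebpb siRNA cells the shares over all genes were 3.0% and 2.48%. The lists were not tested against these shares, so the calls below are not read as particular to them. In control siRNA cells Appl2, a Rab5 effector, rose by 0.33 (limma adjusted p = 0.0307). In Cebpb siRNA cells Tbc1d30 (0.60), Gcc2 (0.22), Golga4 (0.25) and Golgb1 (0.29) rose and Dennd6b changed by −0.57 (adjusted p from 0.00767 to 0.0375). These 6 are likewise named after their values were seen.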

How the data were processed

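The values deposited by the authors are log2 of reads per 1000000 reads of all kinds (RPM), with values at or under 1 RPM listed as 0. This was worked out here, since each value times its library total came to a whole read within 0.1. Per the submitters' processing notes, the aligner was STAR 2.5.3a and the build GRCm38. The sources used name no counting tool. Scaling between libraries used the trimmed mean of log ratios (30% by ratio, 5% by level), with a common floor of 1.073 RPM. Genes above that floor in 4 or more libraries, 11060 in all, were fitted with limma 3.58.1 (R 4.3.3; trend, robust) over 16 libraries with group and experiment as terms. P-values were adjusted over all of them by Benjamini-Hochberg, at a threshold of 0.05. Log2 changes carry SEs and are on the scaled, floored log2 RPM scale, which understates changes of low genes. RPM levels are unscaled. The fit was also run on simulated data in which few genes changed and the experiments did not differ. That setting does not cover the siRNA comparisons, where most genes were called. Within-library ratios were tested by exact permutation (SciPy 1.17.1, Python 3.11.15).

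The members, compartments, lists and the 3′ UTR word were chosen with earlier results of these data known. Given in full are compartment archetypes and members called with a log2 change of at least 0.58 and 5 RPM, and others by counts. P-values measure the spread between libraries, whose independence as cultures rests on the design text. Other settings tried were the model's terms, the libraries in the fit, scaling, pseudocount and filter.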

Additional observations from a re-analysis of the deposited data

Results flagged for a closer look

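In 204 groups of 4 libraries, 1 for each tested member and group, 4 had a library far from the other 3 relative to their range. Chance flags about 1 in 20 groups, which is more than were found here. Rab10 was at 140.0 RPM in control siRNA with isoproterenol, replicate 2 of experiment 2, against 146.1 to 146.4 in the others. Rab7 was at 107.6 RPM in Cebpb siRNA, replicate 2 of experiment 1, against 92.1 to 93.7. Rab40c was at 30.6 RPM in control siRNA, replicate 2 of experiment 2, against 27.3 to 27.6. Rab3il1, a Rab GEF, was at 10.4 RPM in control siRNA, replicate 2 of experiment 1, against 8.08 to 8.39.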

How the results depend on the processing

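The siRNA counts over the 51 tested members (34 without and 36 with isoproterenol) stayed within 1.5 times under all settings tried, at 23 to 34 and 24 to 37, and at 32 to 34 and 33 to 38 when 1 library was left out. The difference of the isoproterenol effects had 0 calls throughout. The isoproterenol counts moved. In control siRNA cells the count of 2 became 0 with no experiment term and 0 in experiment 2 alone, and 0 to 2 with 1 library left out: 0 without control siRNA replicate 2 of experiment 1, and 1 without control siRNA replicates 1 or 2 of experiment 2, isoproterenol replicates 1 or 2 of experiment 1 or isoproterenol replicate 2 of experiment 2. In Cebpb siRNA cells the count of 4 became 1 with no experiment term and 1 with only the groups of the contrast. It became 1 in experiment 1 by itself (Rab8b), 0 in experiment 2 by itself and 6 with no scaling. With 1 library left out it was 1 to 4: 1 without Cebpb siRNA isoproterenol replicate 1 of either experiment, and 2 without Cebpb siRNA replicate 1 of either experiment or any of 5 libraries outside the contrast (control siRNA replicate 1 of experiment 1 and both of experiment 2, and control siRNA with isoproterenol replicates 1 and 2 of experiment 1). With a replicate block the counts were 2, 3, 34, 36 and 0, and the call of Rab8b with isoproterenol was the only one lost. Deviations of same-numbered libraries from their group means had r from −0.192 to 0.23. With 2 libraries per group and experiment, these values cannot settle whether the numbers pair the libraries. Of the 76 called changes, 62 kept their call with no experiment term, 62 in experiment 1 alone, 47 in experiment 2 alone, 69 with no scaling and 75 or more with the other scalings and log2(RPM + 1), and none reversed. Values at or under 1 RPM cannot be seen, so the 19 members listed at 0 and small changes of Rab19, Rab30 and Rab43 are beyond this depth.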

Other observations

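Some Rab transcripts differed between the experiments within the same group. With control siRNA, Rab26os was at 11.2, 10.5, 18.7 and 17.9 RPM, with both libraries of experiment 2 above those of experiment 1. Rab34 was at 6.77, 5.49, 3.97 and 4.38 RPM, with experiment 2 below experiment 1 in that group, and with isoproterenol at 7.52, 7.45, 4.67 and 5.71 RPM, in the same order. Rab28 with both treatments was at 51.8, 43.3, 33.9 and 29.5 RPM, lower in experiment 2. These are values only, and no test of the experiments was made.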
